A study of Mus musculus with 9 samples.

Results

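The cytochrome P450 genes of families 2, 3 and 4 were followed in cultured primary mouse hepatocytes given 4OI, Bobcat339 or DMSO. Genes were taken by their symbol, a family number of 2, 3 or 4, a subfamily letter and a member number, with a summed count of at least 100 over the 9 libraries. The rule gave 50 of the 56691 genes in the table, namely 33 Cyp2, 4 Cyp3 and 13 Cyp4 genes in 15 subfamilies. Of 72 rows with such a symbol, 21 had a lower sum, 9 of them 0, and Cyp2c55 was kept apart as an intestinal transcript. Just inside the limit stood Cyp4f40 with a summed count of 160 and Cyp2a22 with 229, and just outside it Cyp2c39 with 94 and Cyp2t4 with 84. All 50 genes passed the filter on low counts and were tested.

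There were 3 libraries in each group. 4OI is 4-octyl itaconate, an ester of the metabolite itaconate that enters cells. Bobcat339 is an inhibitor of TET dioxygenases, the enzymes that oxidise methylated cytosine in DNA, and DMSO was the solvent control. All cells had 4 h to attach and 24 h in fresh medium. The protocol also has some cells receive Remodelin hydrobromide, which inhibits the acetyltransferase NAT10, ahead of the compounds, and the labels do not tell in which libraries. The sources used here give no dose, duration of treatment, strain, sex or age. Every 4OI title carries hepatocyte number 1, whereas the DMSO titles run from 1 to 3. Separate animals or cultures are not stated for replicates, so a p-value measures the spread between these libraries, which may be technical.

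P450 enzymes of families 2 and 3 oxidise drugs, toxicants, steroids, bile acids and arachidonic acid in the endoplasmic reticulum of the hepatocyte, with electrons from P450 reductase and cytochrome b5. Family 4 enzymes hydroxylate the omega end of fatty acids and leukotrienes. Hepatocyte factors such as HNF4 alpha and C/EBP proteins hold these genes on, the receptors PXR, CAR and PPAR alpha induce subsets of them, and their RNA is known to decline when hepatocytes are put into culture.

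Library totals were 70876333 to 83902788 deposited counts with 4OI, 81046789 to 81685369 with Bobcat339 and 67434312 to 68247951 with DMSO. Levels are given in CPM, counts per 1000000 of the TMM-scaled library size. The cell type label was checked against 20 genes of plasma proteins that hepatocytes secrete and against markers of other liver cells. The secreted protein genes summed to 4619 to 4984 CPM with 4OI, 61001 to 68636 with Bobcat339 and 64331 to 71638 with DMSO. Markers of macrophages (14 genes) summed to 6254 to 6481 CPM with 4OI, 319 to 357 with Bobcat339 and 696 to 761 with DMSO, and endothelial markers (9 genes) to 3315 to 3486, 109 to 129 and 123 to 140 CPM in the same groups. Hepatocyte genes were thus present in every library, but in the 4OI libraries they summed to less than the macrophage markers. In bulk RNA, fewer cells of a type and less RNA per cell cannot be told apart, and this holds for every P450 value below.

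With 4OI, 47 of the 50 P450 genes were lower than with DMSO, 1 was higher and 2 were not called (edgeR, adjusted p under 0.05). Cyp2a5, Cyp2e1, Cyp2c29, Cyp3a11 and Cyp4a10 all fell by more than a factor of 4, and 44 genes did so in all, while Cyp4b1 rose. The 47 lower genes are 94.0% of the set, and 44 lower by 4-fold or more are 88.0%. Over all 18379 genes tested, 63.7% were called in this comparison, 30.4% as lower, 33.3% as higher and 12.2% as at least 4-fold lower. The median log2 fold change of the P450 genes was -3.58, or -3.48 with 4 genes that had no counts with 4OI set at their bounds, against 0.08 over all genes. The count of 47 did not move when any 1 of the 9 libraries was left out. Some rare genes met the limit of 100 summed counts only through the groups where they were high. Cyp4f40 had sums of 132 with DMSO, 28 with Bobcat339 and 0 with 4OI, and Cyp2d12 had 231, 49 and 10. Cyp4f18 had 35, 17 and 188 in the same groups. For such genes the difference was in part fixed by the rule, and Cyp4f40 and Cyp2d12 are among the 47 and the 44. So are Cyp2a4, Cyp2d11 and Cyp3a59, with summed counts of 0 with 4OI, and Cyp2a22, Cyp2d34 and Cyp2c65, with 7, 18 and 21. Cyp2u1, Cyp2s1 and Cyp2c69, also among them, lay under the limit with 4OI too, at 76, 82 and 99. The bounds given below for genes at 0 with 4OI carry the same limit.

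**Figure D1:**
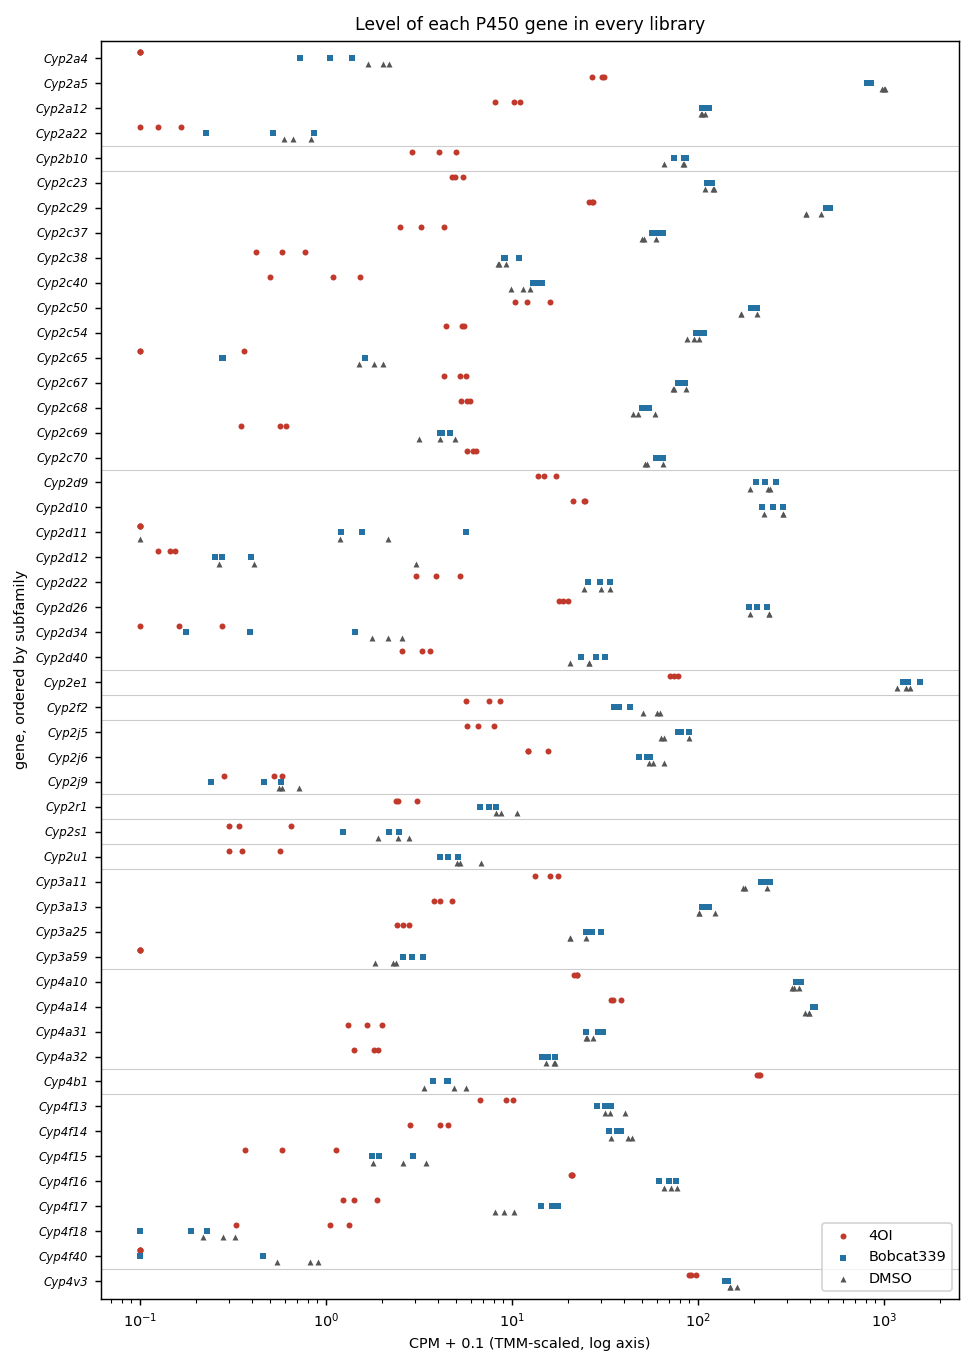
Level of each of the 50 P450 genes in every library, on a log axis of CPM plus 0.1, with genes ordered by subfamily and 3 points for each of 4OI, Bobcat339 and DMSO. The 4OI points lie left of the others for nearly all genes and right of them for Cyp4b1, at 207 to 216 CPM.

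**Figure D2:**
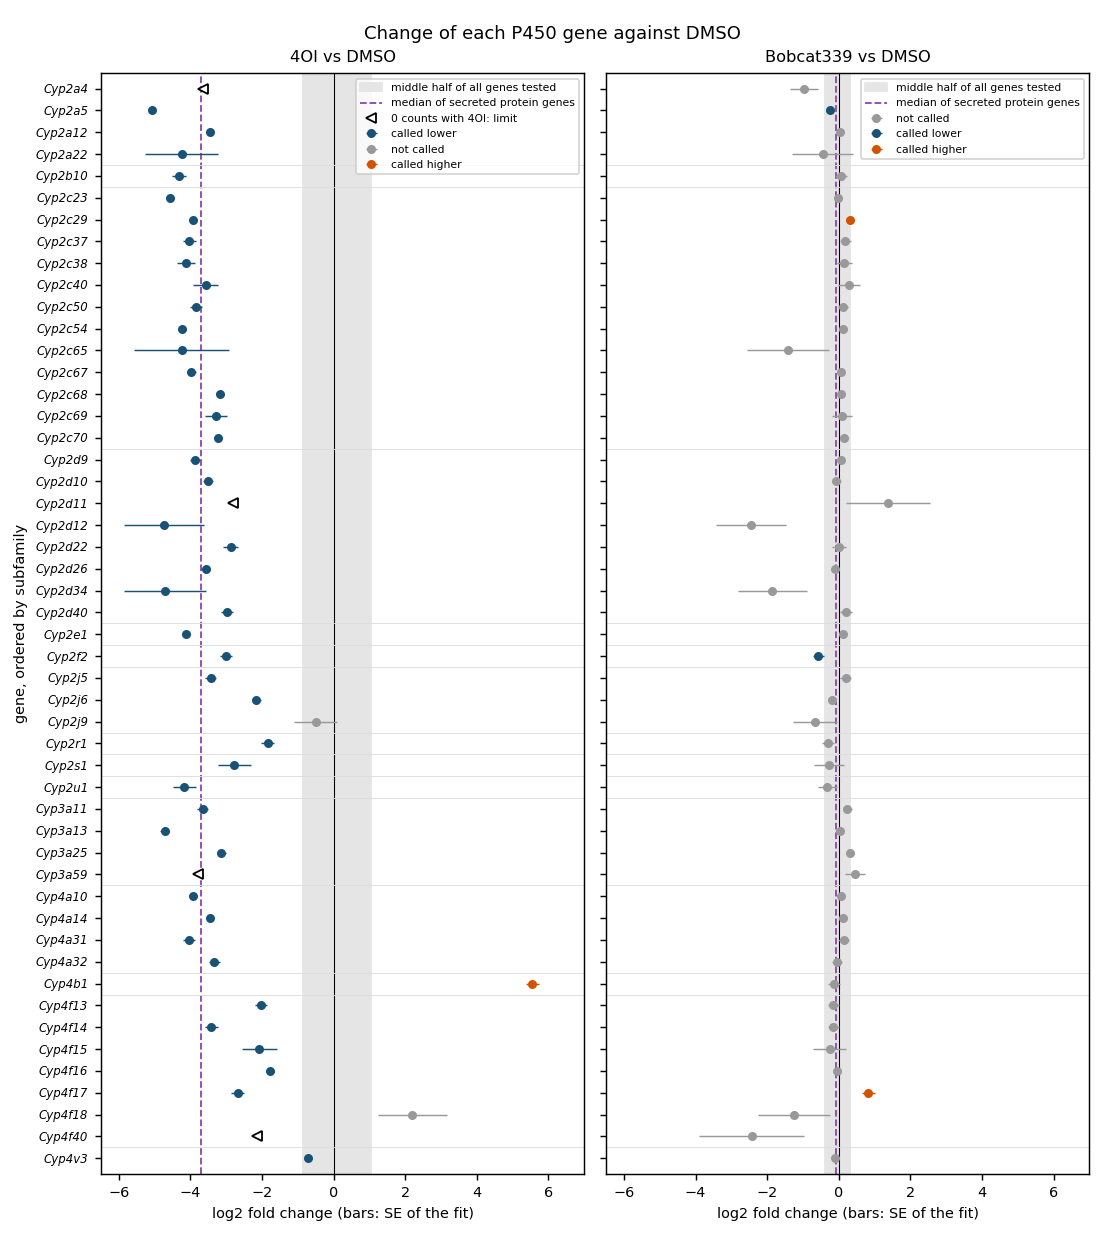
Log2 fold change of each P450 gene against DMSO, for 4OI and for Bobcat339, with bars for the SE of the fit. Colour separates genes called higher, called lower and not called. Open triangles without bars mark the limits of genes with no counts with 4OI, which were called lower. With 4OI 47 genes are lower and 1 is higher, and with Bobcat339 2 are higher and 2 lower.

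Cyp2a5, the coumarin hydroxylase of mouse liver, had the largest fall of the genes with counts in every library. It stood at 26.7, 31.3 and 30.5 CPM with 4OI, 849.8, 858 and 810.2 CPM with Bobcat339, and 1002, 1012 and 979.8 CPM with DMSO. No library of a group overlapped with another group. The log2 fold change was -5.08 ± 0.09 (SE) for 4OI against DMSO (edgeR, adjusted p = 5.5e-11) and -4.83 ± 0.09 for 4OI against Bobcat339 (adjusted p = 5.84e-11). Its relative Cyp2a4, a testosterone hydroxylase, had no counts in the 4OI libraries, against 0.954, 0.624 and 1.28 CPM with Bobcat339 and 1.58, 2.09 and 1.93 CPM with DMSO. At a floor of 12 deposited counts per library, taken as 3 read pairs, this is at least 12.5-fold lower with 4OI than with DMSO. Cyp2a4 and Cyp2a5 share part of their sequence (9.56% of the 100-base windows of the Cyp2a5 transcripts also lie in Cyp2a4, and 11.2% of those of Cyp2a4 in Cyp2a5), so reads can pass between them. Cyp2a12 fell as well (log2 fold change -3.45 ± 0.12, adjusted p = 1.12e-09). The remaining gene, Cyp2a22, stood at 0.0251, 0.0672 and 0 CPM with 4OI and at 0.492 to 0.734 CPM with DMSO, too few counts for a fold change.

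The start regions of the named genes are shown because hepatocyte factors are known to act there. Promoter sequence (250 bases before to 50 after the start) was taken from RefSeq on GRCm38.p6 and found for 40 of the 50 genes. In Cyp2a5 (chr7:26835089-26835388, plus strand) the capitals mark TTGCNNAA, a C/EBP core, and TATAAA, the TATA box. Of the 32851 promoters in the table, 10.8% hold TTGCNNAA and 13.6% hold TATAAA on either strand. Of the 40 P450 genes 10 and 20 do in any of their promoters, and counted by promoter 14 and 20 of 45.
Cyp2a5: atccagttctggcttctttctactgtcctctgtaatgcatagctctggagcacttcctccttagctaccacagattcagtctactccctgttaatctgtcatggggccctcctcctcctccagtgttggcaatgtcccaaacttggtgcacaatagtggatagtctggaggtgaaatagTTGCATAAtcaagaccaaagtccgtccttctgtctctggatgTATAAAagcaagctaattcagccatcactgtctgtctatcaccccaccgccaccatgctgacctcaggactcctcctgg

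Cyp2e1 oxidises ethanol, acetone and small solvents. Its levels were 74.5, 71.0 and 77.8 CPM with 4OI, 1572, 1348 and 1264 CPM with Bobcat339, and 1314, 1385 and 1173 CPM with DMSO. The 4OI libraries stood apart from all others, whereas the Bobcat339 and DMSO libraries overlapped. The change with 4OI was -4.12 ± 0.11 on the log2 scale against DMSO (adjusted p = 2.62e-10), and with Bobcat339 0.11 ± 0.10 (adjusted p = 0.481). Per kilobase of transcript, Cyp2e1 had the highest level of the P450 genes with DMSO, 704 CPM per kb (640.1 to 755), followed by Cyp2a5 at 496 (487 to 503) and Cyp2c29 at 229 (214 to 258), with no overlap between these 3. The next, Cyp2d10 at 162, Cyp4a10 at 158 and Cyp4a14 at 156 CPM per kb, overlapped. The same 3 genes led with Bobcat339, at 761, 417 and 283 CPM per kb. The Cyp2e1 start region (chr7:140763569-140763868, plus strand) holds TATAAA, in capitals, and no TTGCNNAA.
Cyp2e1: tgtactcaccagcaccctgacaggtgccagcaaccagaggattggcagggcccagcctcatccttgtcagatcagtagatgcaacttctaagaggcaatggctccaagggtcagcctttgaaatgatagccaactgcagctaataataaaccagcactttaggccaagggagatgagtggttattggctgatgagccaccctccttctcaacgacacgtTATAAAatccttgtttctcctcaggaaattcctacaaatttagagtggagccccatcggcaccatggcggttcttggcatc

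The Cyp2c genes, epoxygenases and hydroxylases of arachidonic acid, steroids and drugs, number 12 in the set and lie on chromosome 19. All 12 fell with 4OI, with log2 fold changes from -3.18 for Cyp2c68 to -4.56 for Cyp2c23. Cyp2c29 had the highest mean level of the subfamily, 27.1, 26.9 and 25.9 CPM with 4OI, 512, 488 and 515 CPM with Bobcat339, and 382, 383 and 459.5 CPM with DMSO. The 3 groups did not overlap, and the fall with 4OI was -3.94 ± 0.09 (SE, log2) against DMSO (adjusted p = 1.78e-10) and -4.25 ± 0.09 against Bobcat339 (adjusted p = 9.83e-11). Cyp2c23 had 4.83, 4.69 and 5.39 CPM with 4OI, against 119.6, 114 and 112 CPM with Bobcat339 and 121, 122 and 109 CPM with DMSO. Its 4OI libraries were all far below the rest (log2 fold change -4.56 ± 0.09 against DMSO, adjusted p = 8.96e-11). Cyp2c70, which makes muricholic acid from other bile acids, fell by 3.23 on the log2 scale (SE 0.11, adjusted p = 1.11e-09). Several of these transcripts are close copies. For Cyp2c40, Cyp2c69, Cyp2c67 and Cyp2c68, 44.1%, 36.3%, 23.7% and 19.8% of their 100-base windows also lay in another gene, so their separate levels are uncertain.

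The letters CAAAGTCCA, a site bound by HNF4 alpha, were found on either strand in 0.475% of the 32851 promoters. They were in 7 of the 40 P450 genes with a promoter (7 of their 45 promoters), 6 of them Cyp2c genes. Below, 60 bases around each site are printed with the site in capitals, to show that 4 of the Cyp2c windows are near copies of each other and that those of Cyp2c65, Cyp2c70 and Cyp3a11 are not. Searched the same way, the direct repeat of the nuclear receptor core with 1 base between the copies was in none of the 40 genes and in 0.0396% of promoters. TGACNNNGC, the antioxidant response core, was in 4 genes (4 of the 45 promoters) and in 12.4% of all promoters.
Cyp2c40 (chr19:39812825-39812884, minus strand): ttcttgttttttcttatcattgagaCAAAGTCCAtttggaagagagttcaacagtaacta
Cyp2c69 (chr19:39886810-39886869, minus strand): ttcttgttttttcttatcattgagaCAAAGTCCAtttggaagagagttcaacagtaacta
Cyp2c68 (chr19:39741144-39741203, minus strand): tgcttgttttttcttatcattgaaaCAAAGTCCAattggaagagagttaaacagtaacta
Cyp2c67 (chr19:39649133-39649192, minus strand): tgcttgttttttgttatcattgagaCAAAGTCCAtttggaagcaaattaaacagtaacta
Cyp2c65 (chr19:39060865-39060924, plus strand): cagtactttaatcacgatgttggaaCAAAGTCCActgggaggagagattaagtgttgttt
Cyp2c70 (chr19:40187316-40187375, minus strand): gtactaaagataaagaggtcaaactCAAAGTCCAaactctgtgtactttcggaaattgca
Cyp3a11 (chr5:145879929-145879988, minus strand): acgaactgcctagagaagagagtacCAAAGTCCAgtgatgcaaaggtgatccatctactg

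The 8 Cyp2d genes, drug hydroxylases on chromosome 15, were all called lower with 4OI. Cyp2d10 had 24.6, 21.2 and 24.3 CPM with 4OI, 288, 254 and 221 CPM with Bobcat339, and 285, 288 and 226 CPM with DMSO. Its 4OI libraries lay below all others (log2 fold change -3.51 ± 0.14 against DMSO, adjusted p = 2.9e-09), and the other groups overlapped. Cyp2d11 had no counts with 4OI, against 5.56, 1.46 and 1.11 CPM with Bobcat339 and 1.08, 2.06 and 0 CPM with DMSO, which makes it at least 7.004-fold lower with 4OI than with DMSO and at least 18.1-fold lower than with Bobcat339. DMSO replicate 3 was itself at 0, as the 4OI libraries were, and the limits rest on single libraries. Without DMSO replicate 2 the first was 3.63-fold, and without Bobcat339 replicate 1 the second was 8.61-fold. The mean of Cyp2d12 with DMSO also rested mainly on replicate 2, though its fall with 4OI was called with each library left out. This gene had 0.312, 2.97 and 0.165 CPM with DMSO (21, 199 and 11 deposited counts) and 2, 4 and 4 deposited counts with 4OI. Within the DMSO group, replicate 3 was the lowest library for 7 of the 8 Cyp2d genes and the highest for 10 of the 12 Cyp2c and all 4 Cyp3a genes. Within the Bobcat339 group, replicate 1 was the highest for 8 of the 8 Cyp2d genes and the lowest for 7 of the Cyp2c and 3 of the Cyp3a genes. Within the 4OI group, replicate 3 was the highest for 7 of the 12 Cyp2c genes and replicate 2 the lowest for 6, and no library was the lowest for more than 3 of the Cyp2d genes. These counts were not tested, and not every subfamily had a library of this kind in every group. For the 4 Cyp4a genes with Bobcat339, replicate 1, 2 or 3 was the lowest for 1, 2 and 1 genes. With DMSO, however, replicate 2 was the highest for all 4 Cyp4a genes and replicate 3 the lowest for 3.

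The smaller Cyp2 subfamilies also fell. Cyp2b10, the classical target of the receptor CAR, stood at 4.90, 3.94 and 2.81 CPM with 4OI, 86.0, 83.8 and 74.5 CPM with Bobcat339, and 82.9, 84.6 and 66.0 CPM with DMSO, with the 4OI libraries below all others (-4.33 ± 0.19 on the log2 scale against DMSO, adjusted p = 9.16e-09). Cyp2f2, known for the activation of naphthalene, had 7.39, 5.57 and 8.498 CPM with 4OI, 43.2, 35.3 and 37.5 CPM with Bobcat339, and 59.9, 62.1 and 50.3 CPM with DMSO, with no overlap between groups and a change of -3.003 ± 0.16 with 4OI (adjusted p = 4.19e-08). The arachidonic acid epoxygenase Cyp2j5 had 6.49, 5.65 and 7.89 CPM with 4OI, 81.0, 77.8 and 90.0 CPM with Bobcat339, and 63.1, 65.5 and 89.1 CPM with DMSO. Only its 4OI libraries stood apart (-3.44 ± 0.17 against DMSO, adjusted p = 1.7e-08). Cyp2u1, a hydroxylase of long fatty acids, had 0.201, 0.255 and 0.467 CPM with 4OI, 4.45, 5.04 and 4.01 CPM with Bobcat339, and 6.69, 4.94 and 5.18 CPM with DMSO (-4.17 ± 0.32 with 4OI, adjusted p = 7.89e-07).

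Falls of under 4-fold with 4OI were seen for Cyp2r1, Cyp4f16 and Cyp4v3. Cyp2r1, a vitamin D hydroxylase, had 3.00, 2.34 and 2.29 CPM with 4OI, 6.64, 7.39 and 8.09 CPM with Bobcat339, and 8.64, 8.10 and 10.6 CPM with DMSO (log2 fold change -1.84 ± 0.18 against DMSO, adjusted p = 5.46e-06). The 4OI libraries were again the lowest, and Bobcat339 and DMSO lay next to each other. Cyp2s1, a P450 of epithelia, stood at 0.239, 0.201 and 0.547 CPM with 4OI, 2.39, 1.13 and 2.07 CPM with Bobcat339, and 2.33, 2.68 and 1.798 CPM with DMSO, a larger fall of -2.77 ± 0.46 (adjusted p = 0.000306) on few counts. Cyp2j9 was not called in any comparison, with 0.427, 0.483 and 0.182 CPM with 4OI and 0.461, 0.477 and 0.614 CPM with DMSO.

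All 4 Cyp3a genes, on chromosome 5, were lower with 4OI. Cyp3a11, the main hepatic steroid and drug hydroxylase of the subfamily and a PXR target, had 15.9, 13.2 and 17.6 CPM with 4OI, 218, 233.8 and 245 CPM with Bobcat339, and 179, 174 and 236 CPM with DMSO. The 4OI libraries did not overlap with the others, and the change was -3.66 ± 0.15 (SE, log2) against DMSO (adjusted p = 4.38e-09) and -3.90 ± 0.15 against Bobcat339 (adjusted p = 2.71e-09). Cyp3a13 fell further, to 3.70, 4.03 and 4.65 CPM with 4OI, against 105, 112 and 115 CPM with Bobcat339 and 101, 102 and 124 CPM with DMSO (-4.72 ± 0.13 against DMSO, adjusted p = 2.67e-10). Cyp3a59 had no counts with 4OI, against 3.24, 2.50 and 2.79 CPM with Bobcat339 and 1.74, 2.19 and 2.29 CPM with DMSO, or at least 13.9-fold lower than with DMSO and at least 19.0-fold lower than with Bobcat339. Cyp3a25 fell by 3.13 on the log2 scale with 4OI (SE 0.14, adjusted p = 7.53e-09).

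Family 4 divided. The 4 Cyp4a genes, fatty acid omega-hydroxylases induced through PPAR alpha, fell with 4OI by log2 fold changes from -3.33 for Cyp4a32 to -4.04 for Cyp4a31. Cyp4a10 had 22.3, 22.4 and 21.5 CPM with 4OI, 338, 360.0 and 343 CPM with Bobcat339, and 328, 349 and 322 CPM with DMSO (-3.92 ± 0.07 with 4OI against DMSO, adjusted p = 8.43e-11). Cyp4a14 had 33.8, 34.8 and 38.7 CPM with 4OI, 424, 424 and 416 CPM with Bobcat339, and 396, 398 and 378 CPM with DMSO (-3.45 ± 0.08 with 4OI, adjusted p = 1.47e-10). In both, the 4OI libraries lay far below the rest, and for Cyp4a10 the Bobcat339 libraries overlapped with DMSO.

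Of the 7 Cyp4f genes, which hydroxylate leukotrienes, 6 were lower with 4OI. Cyp4f16 had 20.7, 21.0 and 21.0 CPM with 4OI, 76.0, 69.8 and 61.6 CPM with Bobcat339, and 76.7, 71.8 and 65.6 CPM with DMSO, a fall of 1.77 on the log2 scale (SE 0.10, adjusted p = 4.56e-08). Cyp4f13 and Cyp4f15 fell by 2.03 and 2.08, and Cyp4f40, with no counts with 4OI against 0.446, 0.805 and 0.719 CPM with DMSO, was at least 4.39-fold lower. Cyp4f18, the leukotriene hydroxylase of mouse neutrophils, had 0.955, 1.24 and 0.228 CPM with 4OI, 0.129, 0 and 0.0885 CPM with Bobcat339, and 0.178, 0.119 and 0.225 CPM with DMSO. All 3 of its 4OI libraries lay above the DMSO libraries, the third by little, and the rise was called against Bobcat339 (adjusted p = 0.0133) but not against DMSO (2.20 ± 0.96 on the log2 scale, adjusted p = 0.0671). The Bobcat339 libraries held 10, 0 and 7 deposited counts and the DMSO libraries 12, 8 and 15, at or near the floor of 12, so no fold change is given against Bobcat339 and that against DMSO rests on few reads. Without 4OI replicate 3 the rise against DMSO was 2.64 (adjusted p = 0.0317), without Bobcat339 replicate 2 it was 2.19 (adjusted p = 0.0247), and without 4OI replicate 2 that against Bobcat339 was not called (adjusted p = 0.0511). Cyp4v3, a fatty acid hydroxylase whose human counterpart is mutated in Bietti crystalline dystrophy, had 97.5, 89.6 and 92.3 CPM with 4OI, 139.8, 143 and 145 CPM with Bobcat339, and 149, 148 and 163 CPM with DMSO. Its 4OI libraries were the lowest, and the fall of 0.72 on the log2 scale (SE 0.07, adjusted p = 5.54e-06) was the smallest of the 47.

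Cyp4b1, which activates lung toxicants such as ipomeanol and is known from lung and kidney of rodents, moved the other way. Its levels were 207, 216 and 214 CPM with 4OI, 3.65, 4.37 and 4.41 CPM with Bobcat339, and 5.57, 4.76 and 3.27 CPM with DMSO. The 4OI libraries were all far above the others, which overlapped. Its level was 46.8-fold higher with 4OI than with DMSO (log2 fold change 5.55 ± 0.18, adjusted p = 9.07e-10) and 5.68 ± 0.18 higher on the log2 scale than with Bobcat339 (adjusted p = 6.96e-10). Beside it, all 14 macrophage markers and all 9 endothelial markers were higher with 4OI than with DMSO, with median log2 fold changes of 3.35 and 4.41, and 10 of 11 stellate and fibroblast markers were, with a median of 1.81 and summed levels of 251 to 262 CPM with 4OI, 50.6 to 52.3 with Bobcat339 and 56.3 to 59.5 with DMSO. Not every list of other cells rose. Of 8 cholangiocyte markers, 0 were higher and 5 lower with 4OI than with DMSO, at a median log2 fold change of -1.75. Of 6 lymphocyte and neutrophil markers tested, 2 were higher and 1 lower, against 33.3% and 30.4% of all genes. Cdh5, the cadherin of endothelium, stood at 1216 to 1303 CPM with 4OI and 34.6 to 39.7 CPM with DMSO. No macrophage or endothelial marker was at 0 with 4OI, Cd163 was at 0 in 1 Bobcat339 library, Vwf in 2 Bobcat339 libraries and 1 DMSO library, and Clec4g in 1 DMSO library. The part of these cells in the rise of Cyp4b1 and Cyp4f18, and in the fall of the other genes, was not tested. The start region of Cyp4b1 (chr4:115647672-115647971, minus strand) is printed because the gene parts from its family. None of the 8 motifs searched was in it, so no letter is in capitals.
Cyp4b1: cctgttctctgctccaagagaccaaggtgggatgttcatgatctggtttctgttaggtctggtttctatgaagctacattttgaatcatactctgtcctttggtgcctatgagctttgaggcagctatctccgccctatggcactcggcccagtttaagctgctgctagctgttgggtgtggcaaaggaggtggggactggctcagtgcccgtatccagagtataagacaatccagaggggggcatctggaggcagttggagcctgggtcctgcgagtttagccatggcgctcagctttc

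The order of the genes therefore differed with 4OI. Per kilobase of transcript, Cyp4b1 was first with 112 CPM per kb (109 to 114) with 4OI and 37th with 2.40 CPM per kb with DMSO. Cyp2e1 came next with 40.6 CPM per kb (38.7 to 42.4) and then Cyp4v3 with 24.5 (23.5 to 25.6) with 4OI, and Cyp4v3 was 16th with 40.3 CPM per kb with DMSO. Cyp2c29 at 14.9 and Cyp2a5 at 14.7 CPM per kb overlapped with 4OI.

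Summed over the 50 genes, P450 counts made up 0.0744 ± 0.0015% of a library with 4OI, 0.585 ± 0.0209% with Bobcat339 and 0.586 ± 0.0089% with DMSO (mean ± SD, n = 3 each). The 4OI sum was 7.88-fold lower than that of DMSO (exact permutation, two-sided p = 0.1, the smallest that 3 against 3 libraries allow). The Cyp2 and Cyp3 sums were 14.99-fold and 14.0-fold lower with 4OI, and that of Cyp4 2.53-fold lower. Cyp2 genes held 40.04 ± 0.856% of the P450 counts with 4OI and 76.2 ± 0.793% with DMSO, and Cyp4 genes 56.8 ± 1.13% with 4OI, 18.4 ± 0.641% with Bobcat339 and 18.2 ± 0.184% with DMSO. Cyp4b1 alone held 30.0% with 4OI and 0.0762% with DMSO. Without Cyp4b1, an alternative added after its values were seen, the Cyp4 share was 38.3% with 4OI and 18.2% with DMSO, and the whole sum was 11.2-fold lower with 4OI.

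**Figure D3:**
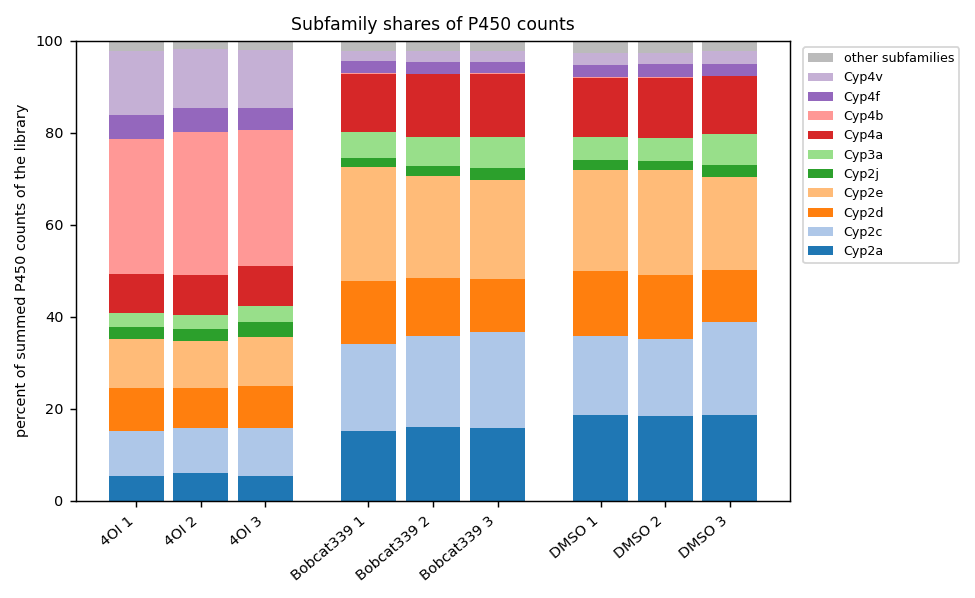
Share of the P450 counts held by each subfamily, in percent, as a stacked bar for each library of 4OI, Bobcat339 and DMSO, with subfamilies under 3% in every library drawn together. Cyp4b holds a mean of 30.0% with 4OI and under 0.1% with Bobcat339 or DMSO, where Cyp2e, Cyp2a and Cyp2c are the largest parts.

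The fall of the P450 genes was set beside that of the secreted protein genes, all 20 of which were lower with 4OI than with DMSO, with a median log2 fold change of -3.69 and -4.14 ± 0.08 for Alb, the albumin gene. Of the 50 P450 genes, 23 had a log2 fold change below that median and 14 below that of Alb. Per 100 counts of secreted protein genes there were 5.90 ± 0.0542 Cyp2 counts with 4OI, 7.03 ± 0.133 with Bobcat339 and 6.56 ± 0.218 with DMSO (mean ± SD, n = 3 each). Relative to these genes the Cyp2 sum was thus 0.899 times that of DMSO with 4OI, with no overlap (exact permutation p = 0.1, the smallest possible). For Cyp3 the values were 0.461 ± 0.0332 with 4OI, 0.576 ± 0.0668 with Bobcat339 and 0.482 ± 0.105 with DMSO, and 4OI and DMSO overlapped (exact permutation p = 1.0). Cyp4 counts numbered 8.38 ± 0.302 with 4OI, 1.71 ± 0.0836 with Bobcat339 and 1.57 ± 0.0566 with DMSO, and all members together 14.7 ± 0.253, 9.32 ± 0.211 and 8.61 ± 0.378 in the same groups, or 1.71 times the DMSO value with 4OI. Without Cyp4b1 the last ratio was 1.20.

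**Figure D4:**
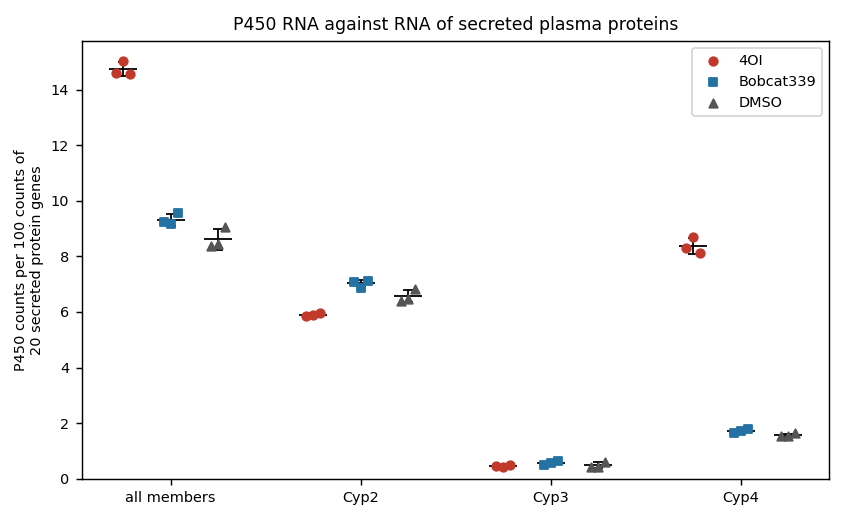
P450 counts per 100 counts of 20 secreted protein genes, for all 50 genes and for each family, with a point for each library, the mean and the SD, for 4OI, Bobcat339 and DMSO. The Cyp2 and Cyp3 values lie close together in the 3 groups, and Cyp4 lies at 8.11 to 8.71 with 4OI and below 2 in the others.

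Bobcat339 left most P450 RNAs near the DMSO level. It raised 2 of the 50, Cyp4f17 and Cyp2c29, lowered 2, Cyp2a5 and Cyp2f2, and 46 were not called (edgeR). These 4 are 8.0% of the set, against 20.7% of all genes called in this comparison (11.6% as higher and 9.06% as lower), and DESeq2 called 2 higher and 4 lower. The median log2 fold change was 0.02 over the P450 genes and -0.01 over all genes, and the summed P450 level was 0.998 times that of DMSO (exact permutation p = 1.0). Cyp4f17 had 14.2, 17.6 and 16.3 CPM with Bobcat339 and 8.98, 10.1 and 7.99 CPM with DMSO, without overlap (0.83 ± 0.18 on the log2 scale, adjusted p = 0.00757), and the rise was called with each library left out. With 4OI the same gene fell, to 1.31, 1.77 and 1.14 CPM (-2.68 ± 0.19 against DMSO, adjusted p = 3.95e-07).

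The other 3 calls with Bobcat339 were smaller and close to the threshold. Cyp2c29, given above, was higher with Bobcat339 than with DMSO by 0.31 ± 0.08 on the log2 scale (adjusted p = 0.0241). The change was -0.25 ± 0.07 for Cyp2a5 (adjusted p = 0.0362) and -0.57 ± 0.15 for Cyp2f2 (adjusted p = 0.0215). In all 3 the groups did not overlap. Without DMSO replicate 1, DMSO replicate 2, Bobcat339 replicate 2 or Bobcat339 replicate 3, in that order, the adjusted p was 0.114, 0.102, 0.0577 and 0.0549 for Cyp2c29, 0.115, 0.111, 0.0906 and 0.103 for Cyp2a5, and 0.0811, 0.0868, 0.0927 and 0.0622 for Cyp2f2, and Cyp2a5 also stood at 0.0503 and 0.0507 without 4OI replicate 2 or 3. The changes themselves stayed near their size, at 0.26 to 0.40 for Cyp2c29, -0.22 to -0.27 for Cyp2a5 and -0.51 to -0.66 for Cyp2f2 over the 9 libraries left out in turn. Over single libraries left out, the counts thus ran from 1 to 4 higher and from 0 to 4 lower, with 4 higher without DMSO replicate 3 and 4 lower without Bobcat339 replicate 1. None of the 4 Cyp3a and none of the 4 Cyp4a genes was called with Bobcat339 (at an unadjusted p under 0.05, 1 Cyp3a gene was higher, and DESeq2 called none). Without DMSO replicate 3, however, Cyp3a11 and Cyp3a25 were called higher with Bobcat339, by 0.40 and 0.42 on the log2 scale (adjusted p = 0.0349 and 0.0408), in place of 0.24 and 0.31 (adjusted p = 0.2499 and 0.108) over all libraries. Macrophage markers were lower with Bobcat339 for 13 of 14 genes, and their part in these values was not tested.

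Between the treatments, 45 P450 genes were lower with 4OI than with Bobcat339, 2 were higher (Cyp4b1 and Cyp4f18) and Cyp2j9, Cyp2c65 and Cyp2d12 were not called. The 45 include Cyp4f40, which had 28, 0 and 0 deposited counts with Bobcat339 and none with 4OI. Its mean with Bobcat339 lay below the floor, so no fall is shown for it. Of all genes 62.2% were called, 31.3% as lower and 30.9% as higher. The median log2 fold change was -3.50 for the P450 genes, or -3.46 with bounds for genes at 0, and -0.00 over all genes. Both comparisons of 4OI and that of Bobcat339 draw on shared libraries and are not independent.

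The partners of P450 enzymes moved unevenly with 4OI. The counts for this list and for those that follow stand beside 33.3% of all genes called higher and 30.4% lower with 4OI, and 11.6% and 9.06% with Bobcat339. Of 9 redox partners, 2 were higher and 5 lower with 4OI than with DMSO (median log2 fold change -0.79). Por, the P450 reductase, was higher in both treatments, with 438, 434 and 459 CPM with 4OI, 517, 458 and 428 CPM with Bobcat339, and 372, 387 and 307 CPM with DMSO, without overlap with DMSO (0.32 ± 0.10 with 4OI, adjusted p = 0.0161, and 0.40 ± 0.10 with Bobcat339, adjusted p = 0.0179). Cyb5a, cytochrome b5, was higher with 4OI (0.41 ± 0.08, adjusted p = 0.000917; -0.11 ± 0.08 with Bobcat339, adjusted p = 0.401), and the heme-binding Pgrmc1 fell by 3.42 (SE 0.11, adjusted p = 7.75e-10). Of 10 genes of heme synthesis, 9 were lower with 4OI, at a median of -0.98. Fech, which inserts the iron, changed by -1.33 ± 0.08 (adjusted p = 8.63e-08), and Alas1, the first enzyme, by -0.53 ± 0.10 (adjusted p = 0.000921). These were smaller than the median of the P450 genes. With Bobcat339, 2 redox partners were higher and 1 lower, and heme synthesis had Cpox higher and Fech lower (-0.48 ± 0.08, adjusted p = 0.00161).

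Of 26 receptors and factors known to control P450 genes, 9 were higher and 14 lower with 4OI, the 9 being close to the share of all genes called higher, 33.3%. With Bobcat339 5 were higher and 4 lower, against 20.7% of all genes called. Hnf4a, encoding HNF4 alpha, had 1.95, 2.36 and 3.38 CPM with 4OI, 81.8, 82.7 and 75.9 CPM with Bobcat339, and 152, 154 and 149.8 CPM with DMSO, with no overlap between any groups (-5.88 ± 0.18 with 4OI, adjusted p = 5.67e-10, and -0.92 ± 0.14 with Bobcat339, adjusted p = 0.00124). Foxa2 fell by 6.61 with 4OI (SE 0.16, adjusted p = 1.83e-10). Nr1i2, encoding PXR, had 0.352, 0 and 0.581 CPM with 4OI, 3.198, 2.85 and 3.08 CPM with Bobcat339, and 7.82, 8.32 and 8.88 CPM with DMSO (-4.71 ± 0.72 with 4OI, adjusted p = 0.000179, and -1.45 ± 0.61 with Bobcat339, adjusted p = 0.127). Ppara, encoding PPAR alpha, had 0, 0.0537 and 0.171 CPM with 4OI, 3.597, 4.10 and 4.17 CPM with Bobcat339, and 6.57, 5.94 and 6.997 CPM with DMSO, without overlap, and its fall was called with 4OI (adjusted p = 4.57e-06) but not with Bobcat339 (-0.72 ± 0.44, adjusted p = 0.313). Their partner Rxra rose with 4OI (0.57 ± 0.08, adjusted p = 8.64e-05). Nr1i3, encoding CAR, was low, at 0.645 to 1.33 CPM with 4OI and 0.178 to 0.794 CPM with DMSO. Its lowest DMSO value was near the floor, and the change with 4OI was not called (edgeR, adjusted p = 0.0778).

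The 18 targets of PPAR alpha outside the P450 genes did not all follow Cyp4a10 and Cyp4a14. With 4OI 9 were lower and 5 higher, at a median log2 fold change of -0.59. Creb3l3, a liver transcription factor, fell by 3.59 (SE 0.14, adjusted p = 3.25e-09), whereas Cpt1a, which brings fatty acids into mitochondria, rose (1.53 ± 0.06, adjusted p = 5.86e-09). With Bobcat339 6 were higher and 1 lower, at a median of 0.27. Pdk4, a kinase that restrains pyruvate oxidation, had the smallest adjusted p (2.29 ± 0.13, adjusted p = 3.07e-06), followed by Angptl4, a lipase inhibitor (1.22 ± 0.09, adjusted p = 1.26e-05), while Cyp4a10 stood at 0.06 ± 0.07 (adjusted p = 0.601) and Cyp4a14 at 0.11 ± 0.07 (adjusted p = 0.333). The coactivator gene Ppargc1a rose with Bobcat339 as well (2.00 ± 0.29, adjusted p = 0.00083).

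Of 17 P450 genes of other families, 11 were lower, 2 higher and 4 not called with 4OI (median log2 fold change -2.29). Cyp1a2, which oxidises caffeine and aromatic amines, had 5.36, 5.53 and 5.71 CPM with 4OI, 199, 181 and 176 CPM with Bobcat339, and 167, 169.8 and 138 CPM with DMSO (-4.84 ± 0.11 with 4OI, adjusted p = 1.53e-10). The 2 higher genes were Tbxas1, thromboxane synthase (4.37 ± 0.23, adjusted p = 3.34e-08), and Ptgis, prostacyclin synthase (3.03 ± 0.27, adjusted p = 2.14e-06), of which Ptgis was named after its values were seen. With Bobcat339 the sterol demethylase Cyp51 was higher (0.50 ± 0.08, adjusted p = 0.00143), and Cyp26b1 and Tbxas1 were lower.

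Cyp2c55, kept apart from the set, was uneven within the Bobcat339 group. It had 1.51, 1.71 and 0.273 CPM with 4OI, 16.2, 1.57 and 2.00 CPM with Bobcat339, and 20.5, 17.4 and 19.2 CPM with DMSO. It was lower with 4OI than with DMSO (log2 fold change -4.04 ± 0.91, adjusted p = 0.00259). With Bobcat339 the change was -1.53 ± 0.80 (adjusted p = 0.227), and without Bobcat339 replicate 1 it was -3.42 (adjusted p = 0.0022). The 15 intestinal markers, all lower with 4OI than with DMSO, summed to 16.9, 18.3 and 2.40 CPM with 4OI, 199.8, 47.9 and 45.8 CPM with Bobcat339, and 250.2, 222 and 261 CPM with DMSO, with Bobcat339 replicate 1 the highest and 4OI replicate 3 the lowest of its group for both Cyp2c55 and these markers. Among the P450 genes of the set, Cyp2c65 had 1.52, 0.178 and 0.177 CPM and Cyp2d34 1.34, 0.293 and 0.0758 CPM with Bobcat339, against 1.40 to 1.93 and 1.67 to 2.47 CPM with DMSO, and 0 to 0.264 and 0 to 0.175 CPM with 4OI. For both, Bobcat339 replicate 1 stood above the other replicates. Both were called lower with 4OI than with DMSO (adjusted p = 0.0167 and 0.00407). The part of intestinal RNA in these values was not tested.

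**Figure D5:**
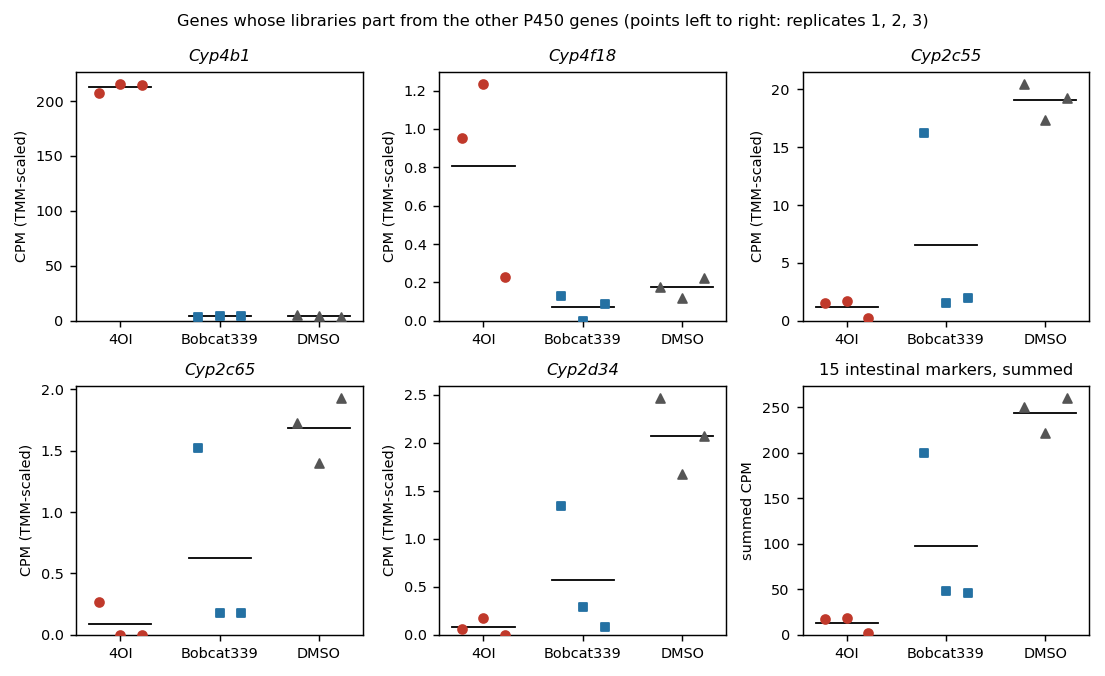
Levels in CPM of Cyp4b1, Cyp4f18, Cyp2c55, Cyp2c65 and Cyp2d34 and the summed level of 15 intestinal markers, with a point for each library of 4OI, Bobcat339 and DMSO and a line at the group mean. Cyp4b1 is high in all 3 4OI libraries, and for Cyp2c55 and the intestinal markers Bobcat339 replicate 1 stands near the DMSO libraries.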

How the data were processed

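The deposited table holds 56691 genes and 1 column for each of 9 RNA-seq libraries. Per the submitters' processing notes, CASAVA 1.8, HISAT2 2.0.5 and the counter featureCounts 1.5.0-p3 were used. No settings, genome build or annotation is given in the sources used here. The values the authors deposited were read as estimated counts per gene, unscaled between libraries, because 43.7% to 45.6% of those between 4 and 40 were multiples of 4, where an even spread would give 27.0%. Each read pair was therefore assumed to add about 4 to a deposited count, which most of these values do not bear out exactly and which the sources used here do not settle. If it holds, the totals of 67434312 to 83902788 overstate depth about 4-fold. The values were whole numbers and were used unrounded. Symbols were attached by Ensembl identifier for 52073 genes. Strandedness of the counting is not given, so reads of overlapping and antisense genes cannot be told apart. How reads that match close copies were counted is not given either, so these cannot be told apart as well.

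After filterByExpr, 18379 genes were left and fitted once over the 9 libraries by the quasi-likelihood method of edgeR 4.0.16 (R 4.3.3) with TMM scaling and two-sided tests, with Benjamini-Hochberg adjustment over them in each comparison. Sums, shares and ratios were compared by exact permutation (SciPy 1.17.1). A gene at 0 in a group is given a bound from a floor of 12 deposited counts per library, 3 read pairs under that assumption, which covers counting error only. Levels per kilobase use GENCODE M21 transcripts, and promoters and motif shares come from RefSeq (GRCm38.p6), with motif matches that overlap counted for each motif. Alternatives were DESeq2 1.42.0, RLE or no scaling, other filters, only the 6 libraries compared, values divided by 4, a replicate block and each library left out.

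The genes and lists were chosen with earlier results of these data known. Values in every library are given for the most abundant gene of each subfamily, Cyp2a5, Cyp4a10 and up to 5 called genes with the largest change in each direction at a mean of at least 1 CPM, and for the lists up to 3 called genes with the smallest adjusted p and a few genes always named. The scripts were tested on simulated data. The replicate numbers were not used to pair the samples, and whether they do pair them is not settled.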

Additional observations from a re-analysis of the deposited data

How the results depend on the processing

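The 47 P450 genes lower with 4OI than with DMSO were 47 with each library left out (range 47 to 47), and those lower than with Bobcat339 numbered 43 to 45. The count of 47 was 44 with the filter at 1 CPM in 3 libraries. With values divided by 4 it was 45, and with only the 6 libraries compared 46. In these settings fewer P450 genes were tested, and none that was tested lost its call. Other counts rest on few genes. For Bobcat339 against DMSO, the genes called over the whole table (3802) ran from 2426 to 4115 over libraries left out. The P450 genes called higher there (2) were 1 with RLE scaling and 1 to 4 over libraries left out, and those called lower (2) were 4 with DESeq2, 1 with no filter, 1 with only the 6 libraries compared and 0 to 4 over libraries left out. For 4OI the genes called higher against DMSO (1) were 2 with DESeq2 and with only the 6 libraries, and 1 to 2 over libraries left out. Against Bobcat339 (2) they were 1 with the filter at 1 CPM in 3 libraries and with values divided by 4, and 1 to 2 over libraries left out. In each of these the change is Cyp4f18 for 4OI, which was not among the genes tested with the filter at 1 CPM or with values divided by 4. Over all genes, 56.2% of the calls with Bobcat339 were higher, against 45.2% with DESeq2 and 46.1% with RLE scaling. With library size only, the median of all genes for 4OI against Bobcat339 shifted by 0.12 and that of the P450 genes was -3.38.

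The summed P450 level with 4OI was 0.127 times that of DMSO, and 0.119 with TMM-scaled CPM, 0.145 without Cyp2e1, the most abundant gene, and 0.0890 without Cyp4b1 (added after seeing the data). Against Bobcat339 the same values were 0.127, 0.117, 0.148 and 0.0891. The P450 to secreted protein ratio with 4OI over DMSO, 1.71, was 2.11 with Alb alone, 1.54 without Alb, 1.96 without Cyp2e1 and 1.20 without Cyp4b1, and over Bobcat339, 1.58, it was 1.87, 1.45, 1.84 and 1.11. Without Cyp4b1 the ratios of the shares with 4OI over DMSO were 0.750 for Cyp2, 0.802 for Cyp3 and 2.11 for Cyp4, and over Bobcat339 0.757, 0.723 and 2.09. The cause was not tested.

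With the replicate number as a block, 4OI against Bobcat339 had 44 P450 genes lower, with Cyp2c65 gained and Cyp2d34 and Cyp4f40 lost, and Bobcat339 against DMSO had 4080 genes called in place of 3802. Deviations of libraries with the same number correlated at -0.027 to 0.097 over genes, and those with different numbers at -0.117 to 0.059. The highest correlations were between libraries of the same number, so a pairing by number was not settled. The block changed no other call of a P450 gene. Of the P450 genes, 9 changed call under some alternative for Bobcat339 against DMSO (Cyp2a5, Cyp2c29, Cyp2d12, Cyp2d34, Cyp2f2, Cyp3a11, Cyp3a25, Cyp4f40 and Cyp4v3), 1 for 4OI against DMSO and 5 for 4OI against Bobcat339.

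Depth limits the rarest genes. Cyp2a4, Cyp3a59, Cyp2d11 and Cyp4f40 had no counts with 4OI, and Cyp2a22 and Cyp2d12 at most a few, so only bounds or levels are given. The bounds given, with each library left out, added after seeing the data, moved by over 1.5 times only for Cyp2d11. For Cyp4f40 against Bobcat339, both groups lay at the floor in all but 1 library.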

Other observations

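Rows of the same families whose symbols carry a further letter or mark a pseudogene stood outside the rule. Cyp4a12a, a fatty acid omega-hydroxylase known from male mouse liver and kidney, had 8.11, 4.86 and 7.76 CPM with 4OI, 99.9, 113 and 107 CPM with Bobcat339, and 104, 107 and 107 CPM with DMSO. The 4OI libraries lay below the rest (log2 fold change -3.94 ± 0.17 against DMSO, adjusted p = 7.2e-09), within the range of the 4 Cyp4a genes of the set. Cyp4a12b had 1.95, 2.03 and 2.30 CPM with 4OI, 30.9, 34.2 and 36.7 CPM with Bobcat339, and 33.1, 31.9 and 34.8 CPM with DMSO. The pseudogene Cyp2a21-ps had no counts with 4OI, against 4.76, 1.92 and 2.33 CPM with Bobcat339 and 5.42, 2.79 and 5.74 CPM with DMSO, or at least 31.1-fold lower with 4OI than with DMSO. Reads of such copies may pass to or from the genes of the set.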
